A study of Mus musculus with 6 samples.

Results

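The 200 most abundant long noncoding RNAs of the postnatal testis were compared between Ppp6r3 cKO and wild-type mice. Long noncoding RNAs are transcripts longer than most small RNAs that carry no annotated protein-coding frame. Some act as scaffolds of nuclear bodies, some bind proteins or microRNAs in the cytoplasm, and some are mainly the precursors of microRNAs or of small nucleolar RNAs, which guide modification of ribosomal RNA. Many start beside a protein-coding gene and run in the opposite direction, and the testis is known for the large number of such transcripts that its germ cells make.

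The members were chosen by gene type, exon length and level. All genes that GENCODE M21 types as lincRNA (a long transcript between genes) or antisense (a transcript on the strand opposite another gene), with at least 500 exon bases and without 4 genes left out by name, were ranked by mean FPKM over the 6 libraries, and the 200 highest were kept. FPKM counts fragments relative to exon length and to library depth, which makes genes of different length comparable. These 200 members, 104 lincRNA and 96 antisense genes, came from a pool of 6871 such genes, of which 4257 were above 0, and from 54532 genes in all. The last members inside the limit were Gm10824 and 5430416N02Rik, both at 1.96 FPKM, and the next genes below it were Gm26935 and Gm14662, both at 1.95 FPKM. Levels over both genotypes ranked the members, so the levels are a description. The difference between genotypes was not used in the ranking and was tested. The rule, with its 4 genes left out, was set with earlier results of these data known.

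RNA was measured in testis of mice on postnatal day 9, with 3 libraries of Ppp6r3 cKO, a conditional knockout, and 3 of wild type. Ppp6r3 makes a subunit that steers protein phosphatase 6 to its substrates. Which Cre driver was used, in which cells it acts and whether wild-type mice carried floxed alleles is not in the labels, nor whether the samples of a group were separate animals, so a p-value here weighs the spread between 3 samples, which may be technical. Polyadenylated RNA was selected before the libraries were made, so transcripts without a poly(A) tail are under-represented.

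The depth inferred from the FPKM values was 15970908 to 16606868 fragments per library. Fragments recovered gene by gene summed to 101.5% to 103.3% of that depth, and 62238 to 65303 of them per library fell on the members. Why the sum exceeds the depth was not tested. Ppp6r3 itself had 15.8, 15.3 and 14.9 FPKM in Ppp6r3 cKO and 20.8, 21.3 and 21.005 FPKM in wild type (log2 difference -0.45, SE 0.042, limma adjusted p = 0.000698), a value for the whole gene in whole tissue. One library stood apart by base composition: in Ppp6r3 cKO replicate 1 the median deviation of genes was -0.11 on the log2 scale in the tenth of genes with the lowest GC content and 0.13 in the tenth with the highest, against -0.064 to 0.056 in the other 5 libraries. Results on the members are therefore also given without it. Cell type markers moved too, in whole tissue: 12 of 12 meiotic germ cell markers were lower (summed level 143 to 151 FPKM in Ppp6r3 cKO and 329 to 335 FPKM in wild type), 5 of 8 markers of undifferentiated spermatogonia were higher (95.4 to 98.4 FPKM in Ppp6r3 cKO and 75.7 to 76.9 FPKM in wild type), 5 of 7 endothelial markers were higher (56.2 to 60.1 FPKM in Ppp6r3 cKO and 35.5 to 39.8 FPKM in wild type) and 3 of 6 macrophage markers were higher (139.7 to 152 FPKM in Ppp6r3 cKO and 105 to 110.4 FPKM in wild type). All 3 erythroid markers were lower (178 to 204 FPKM in Ppp6r3 cKO and 289 to 327 FPKM in wild type), 2 of 5 peritubular myoid markers were lower (500.3 to 529 FPKM in Ppp6r3 cKO and 592 to 618 FPKM in wild type), 1 of 5 Leydig markers was higher (189.8 to 193 FPKM in Ppp6r3 cKO and 171 to 178 FPKM in wild type), and of 7 Sertoli markers 1 was higher and 1 lower (490.4 to 550 FPKM in Ppp6r3 cKO and 501 to 515 FPKM in wild type). No marker was at 0, and the part of these shifts in the results on the members was not tested. Some sums rested largely on 1 gene, so they are not levels of a cell type. Acta2, a myoid marker, had 453 to 480 FPKM in Ppp6r3 cKO and 542 to 567 FPKM in wild type. In the same order, Lyz2, a macrophage marker, had 76.7 to 79.6 and 46.1 to 55.6 FPKM. Hsd3b1, the Leydig marker that passed, had 122.6 to 122.9 and 100.2 to 105.1 FPKM. Of the other Leydig markers, Cyp17a1 and Insl3 lay lower in all Ppp6r3 cKO libraries and Star higher, and none passed.

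The label of long noncoding RNA was set against a second annotation. RefSeq, matched by symbol, lists 108 members as long noncoding RNA, 2 as transcribed pseudogenes and 7 as protein-coding (Scml1, 1810058I24Rik, Tmem250-ps, Gm11837, Gm6712, Gm46430 and Zfp469), and 83 were not found there by symbol. Those 7 are therefore noncoding by GENCODE M21 only. Exons of 99 members overlap an exon of another gene, and no source used here gives the strand setting of the counting, so their fragments may in part come from the other gene. The members' exons add up to between 500 and 20771 bases, with a median of 1391, their GC content is 33.6% to 70.9%, and 33 have 1 exon only.

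Short sequences show what some of the most abundant members carry. Outside the chromosome of the member Carmn, which this search left out, microRNA genes lie inside 8 members, with 17 hairpins among them. The mature sequences below (RefSeq, GRCm38.p6) are those of the members described later. Capitals mark the seed, bases 2 to 8, through which a microRNA recognises its targets. Mature microRNAs were not measured by these libraries. Gm2044 holds Mir202, whose 3p form has a seed that differs from the let-7 seed in its last base, and 6720427I07Rik holds 3 let-7 genes.
miR-202-3p: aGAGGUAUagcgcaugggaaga
miR-202-5p: uUCCUAUGcauauacuucuuu
let-7a-5p: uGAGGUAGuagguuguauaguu
let-7d-5p: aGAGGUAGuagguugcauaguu
let-7f-5p: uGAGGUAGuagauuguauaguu
Within Mir17hg, miR-17-5p and miR-20a-5p share a seed, as do miR-19a-3p and miR-19b-3p, while miR-18a-5p and miR-92a-3p have seeds of their own.
miR-17-5p: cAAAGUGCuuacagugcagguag
miR-20a-5p: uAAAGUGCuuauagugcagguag
miR-18a-5p: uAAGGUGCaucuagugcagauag
miR-19a-3p: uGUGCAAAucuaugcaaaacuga
miR-19b-3p: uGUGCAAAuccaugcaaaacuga
miR-92a-3p: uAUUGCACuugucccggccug
Dnm3os holds the genes of miR-199a and miR-214, and E130102H24Rik that of miR-101a.
miR-199a-3p: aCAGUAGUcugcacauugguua
miR-214-3p: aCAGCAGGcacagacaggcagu
miR-101a-3p: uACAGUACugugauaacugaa

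The second set is a microRNA site in a member. 1700020I14Rik, known as Cyrano, is a cytoplasmic RNA known for an extensively paired site for miR-7, which it leads to degradation. A search of its GENCODE transcript of 8300 bases found that site at positions 2935 to 2959, where 13 bases and then 8 bases match miR-7a-5p on either side of 4 unmatched bases. In the site, capitals mark matched bases, and in the microRNA they mark the seed. The 8-base match alone is held by 9 of the 200 members (4.5%).
1700020I14Rik site: ACAACAAAATCACcaatGTCTTCCA
miR-7a-5p: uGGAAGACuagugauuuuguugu

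A repeated element marks another abundant member. 2900097C17Rik, known as Norad, is a cytoplasmic RNA known for binding Pumilio proteins through repeats of TGTANATA. Its 4915 exon bases held 11 such elements: TGTATATA occurred 6 times, TGTACATA 3 times and TGTAAATA 2 times. Of the 200 members, 30 (15.0%) held at least 1 element, and the next highest counts, 4 each, were in Rab10os and Neat1.

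A few members held much of the summed level. The most abundant, Gm26917, held 14.8% of the members' summed mean FPKM and the top 10 held 43.4%. Only 23 members reached 10 FPKM and 54 reached 5 FPKM, and the median member stood at 3.24 FPKM. Together the members held 60.8% of the summed FPKM of the pool. Their sum was 1488, 1518 and 1482 FPKM in Ppp6r3 cKO and 1504, 1522 and 1508 FPKM in wild type, so the ranges overlapped. Without Gm26917 the sum was 1236, 1276 and 1275 FPKM in Ppp6r3 cKO and 1295, 1301 and 1307 FPKM in wild type, and those ranges did not overlap.

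**Figure D1:**
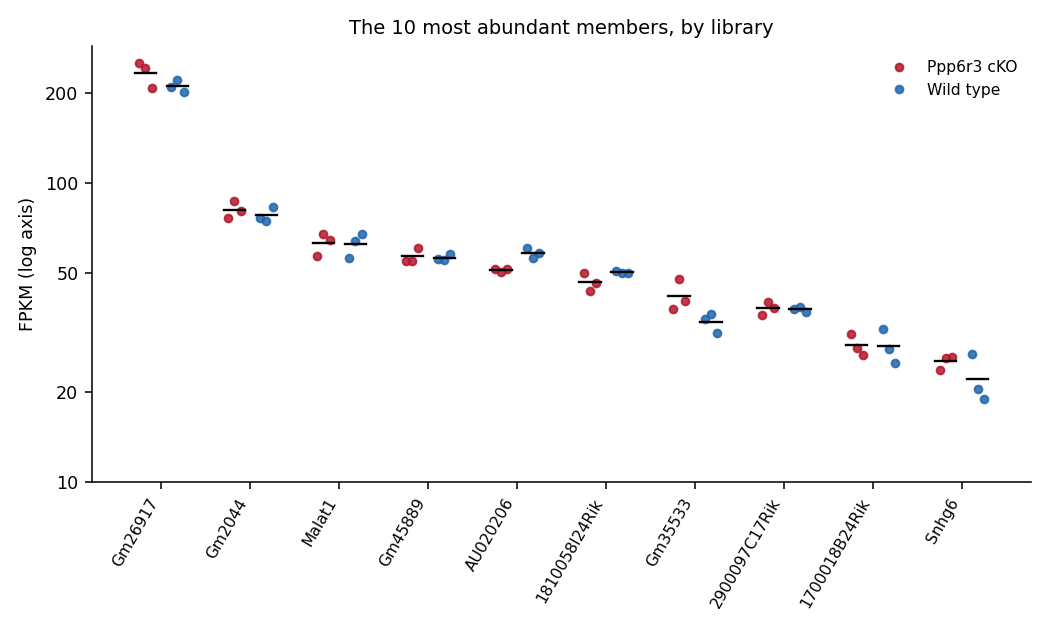
FPKM (log axis) of the 10 most abundant members in each library, with Ppp6r3 cKO in red left of wild type in blue, 1 point per library and a bar at the group mean (n = 3 each). AU020206 and 1810058I24Rik sit lower in all Ppp6r3 cKO libraries and Gm35533 sits higher, and the groups of the other 7 overlap.

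Gm26917 had 252, 242 and 207 FPKM in Ppp6r3 cKO and 209, 221 and 202 FPKM in wild type. The groups overlapped, and the log2 difference of 0.14 (95% interval -0.02 to 0.31, limma adjusted p = 0.221) did not pass; without Ppp6r3 cKO replicate 3 it was called higher. Gm26917 lies on chromosome 17 (GRCm38, 39843013 to 39846341), 11 bases from a gene that GENCODE types as ribosomal RNA, and how many of its fragments come from ribosomal RNA copies was not tested. Gm2044, the host of Mir202, had 76.0, 87.0 and 80.3 FPKM in Ppp6r3 cKO and 76.0, 74.7 and 82.7 FPKM in wild type. Its groups overlapped as well (log2 difference 0.06, 95% interval -0.08 to 0.20).

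Malat1, which localises to nuclear speckles, had 57.0, 67.4 and 64.6 FPKM in Ppp6r3 cKO and 56.2, 64.1 and 67.7 FPKM in wild type. The log2 difference was 0.01 with a 95% interval of -0.18 to 0.20, and the groups overlapped. Gm45889 (56.8 ± 3.33 FPKM in Ppp6r3 cKO and 56.2 ± 1.47 FPKM in wild type), 2900097C17Rik (38.1 ± 1.93 FPKM in Ppp6r3 cKO and 37.9 ± 0.683 FPKM in wild type) and 1700018B24Rik (28.6 ± 2.42 FPKM in Ppp6r3 cKO and 28.5 ± 3.83 FPKM in wild type) had log2 differences of 0.01 each (SD, n = 3 each). For Norad the 95% interval was -0.10 to 0.11. 1700020I14Rik, or Cyrano, had 20.1, 24.0 and 23.4 FPKM in Ppp6r3 cKO and 20.5, 20.2 and 21.4 FPKM in wild type, with a log2 difference of 0.12 (95% interval -0.04 to 0.27). It did not pass, and it was called higher without Ppp6r3 cKO replicate 1, the library that stood apart.

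Among the 10 most abundant members, AU020206 was the one past the threshold. It had 51.7, 50.5 and 51.4 FPKM in Ppp6r3 cKO and 60.3, 56.0 and 58.5 FPKM in wild type. Every Ppp6r3 cKO library lay below every wild-type library, and the log2 difference was -0.19 (SE 0.040, limma adjusted p = 0.0187). The call was lost on leaving out Ppp6r3 cKO replicate 2 or wild-type replicate 1 or 3, with adjusted p values up to 0.0698 and log2 differences of -0.21 to -0.16. 1810058I24Rik, which RefSeq lists as protein-coding, had 50.05, 43.5 and 46.4 FPKM in Ppp6r3 cKO and 50.8, 50.10 and 50.13 FPKM in wild type. The groups did not overlap, but by a narrow margin, and the log2 difference of -0.11 did not pass (adjusted p = 0.189). It was called lower without Ppp6r3 cKO replicate 1 (log2 difference -0.16, adjusted p = 0.0362). Gm35533 had 38.0, 47.6 and 40.3 FPKM in Ppp6r3 cKO and 35.1, 36.4 and 31.4 FPKM in wild type, again without overlap. Its log2 difference of 0.29 did not pass (adjusted p = 0.0705). It was called higher by voom on recovered fragments, with the replicate block, and after the GC and length correction with or without that block (adjusted p 0.0149 to 0.0361).

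Of the 200 members, all of which met the minimum for the test, 16 changed between the genotypes: 4 were higher and 12 lower in Ppp6r3 cKO, and 184 did not pass (limma, adjusted p under 0.05 over all genes tested). These are 8.0%, 2.0% and 6.0% of the members for changed, higher and lower, where 15.5%, 7.65% and 7.83% of the 17673 genes tested passed in the same way. The median SE of the members' log2 difference was 0.13, against 0.087 for all genes tested. Their median level was 3.24 FPKM against 5.18 FPKM, and their median exon length 1391 against 3856 bases. The part of level and length in the share of calls was not tested. The members' median log2 difference was -0.07 and that of all genes tested was 0.003. The groups did not overlap in 47 members (23.5%), of which 13 were higher and 34 lower, where 36.9% of all genes tested did not overlap. Without Ppp6r3 cKO replicate 1, 6 members were higher and 12 lower, 11 of them shared with the 16. In whole tissue, fewer cells of a type and less RNA per cell cannot be told apart.

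**Figure D2:**
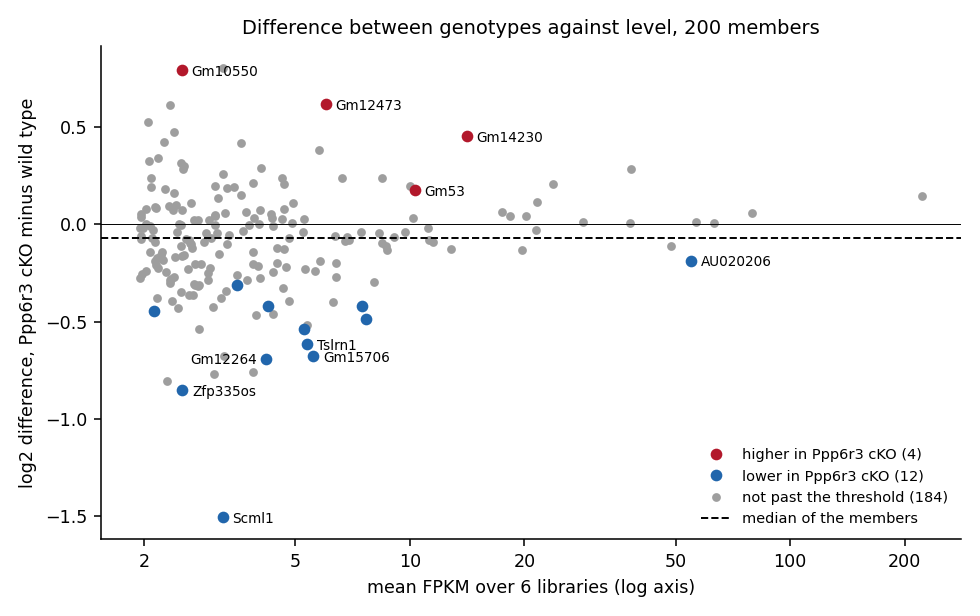
The log2 difference between genotypes (Ppp6r3 cKO minus wild type, on log2 FPKM + 0.1) against mean FPKM over the 6 libraries (log axis), 1 point per member, with the 4 higher members in red, the 12 lower in blue and the other 184 in grey. The dashed line is the members' median of -0.07, and the quartiles of the members are -0.24 and 0.06.

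Calls were more frequent where levels were higher. Of the 50 most abundant members 8 changed, of the next 50 members 4, of the next 50 members 3 and of the last 50 members 1. The median SE of the log2 difference was 0.089 in the most abundant 50 and 0.15 in the last 50. Both types held members of each direction, with 2 higher and 8 lower among the lincRNA members and 2 higher and 4 lower among the antisense members. By base composition, the 67 members with the lowest GC content held 0 higher and 5 lower (limma as above), the 66 in the middle also held 0 higher and 5 lower, and the 67 with the highest held 4 higher and 2 lower. At an unadjusted p under 0.05 (limma), the lowest, middle and highest groups held 4, 3 and 9 higher members and 18, 12 and 8 lower ones. Voom on recovered fragments called 2, 0 and 3 higher in them. The same counts over all genes tested are not given here by GC content. The median deviation of the highest group was 0.020, -0.001 and -0.015 in Ppp6r3 cKO and 0.043, 0.063 and -0.020 in wild type. That of the lowest group was -0.12, 0.025 and 0.037 in Ppp6r3 cKO and 0.033, 0.089 and 0.11 in wild type. In both groups the genotypes overlapped, and the part of base composition in the calls was not tested. After a correction for GC content and length, 7 members were higher and 12 lower, 13 of them shared with the 16, and the members' median was -0.01. Gm12473, Tslrn1 and 1700048O20Rik were not past the threshold after it (adjusted p = 0.0663, 0.0982 and 0.0583).

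**Figure D3:**
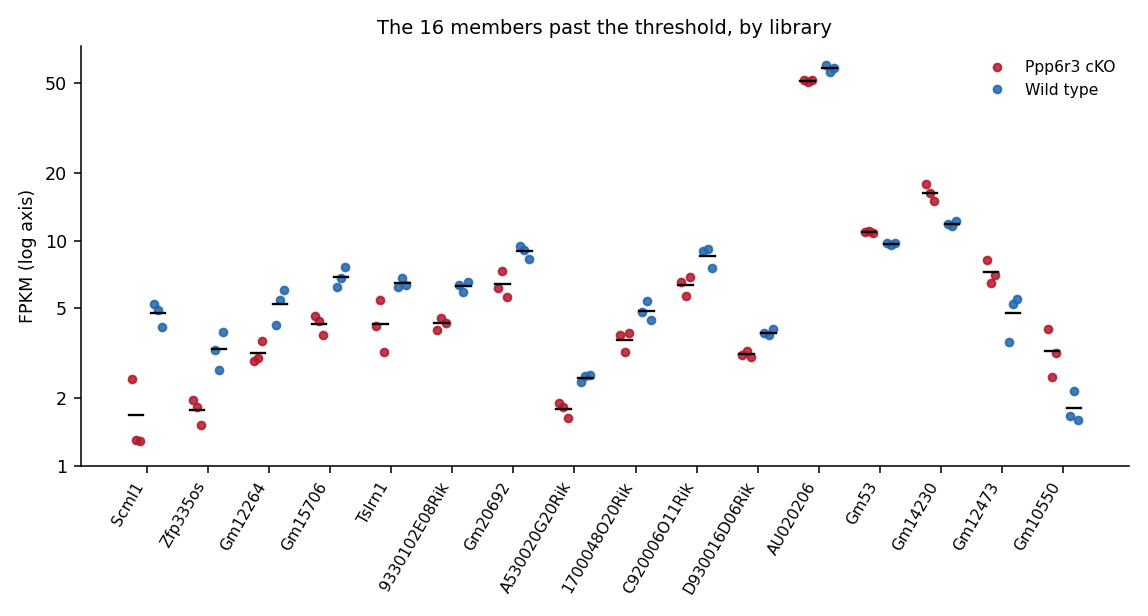
FPKM (log axis) of the 16 members past the threshold in each library, ordered by log2 difference, with Ppp6r3 cKO in red left of wild type in blue and a bar at each group mean (n = 3 each). In none of the 16 do the groups overlap, and the lowest levels are those of Scml1 in Ppp6r3 cKO.

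Of the 16 members, 5 passed at an adjusted p under 0.05 under each of the 15 alternative settings and left-out libraries: Scml1, Zfp335os, Gm15706 and 9330102E08Rik, which were lower, and Gm14230, which was higher. In the main fit 4 of these, without Zfp335os, also passed at an adjusted p under 0.01. None of the 4 did so under every alternative, where their highest adjusted p values were 0.0187 to 0.0325 (limma or voom). Scml1 had the largest difference of the members. It had 2.44, 1.30 and 1.29 FPKM in Ppp6r3 cKO and 5.23, 4.92 and 4.13 FPKM in wild type. The groups were far apart, with Ppp6r3 cKO replicate 1 the highest of its group, and the log2 difference was -1.50 (SE 0.23, limma adjusted p = 0.00666). It rests on 12 to 50 fragments per library and ran from -1.79 without Ppp6r3 cKO replicate 1 to -1.13 with a pseudocount of 1. GENCODE M21 types the locus as lincRNA (chromosome X, 161817734 to 161819587, minus strand, 576 exon bases in 2 exons), while RefSeq lists a protein-coding gene there, named for its likeness to the Drosophila polycomb gene Sex comb on midleg.

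9330102E08Rik (chromosome 6, 128169704 to 128183803, minus strand) had 4.02, 4.54 and 4.29 FPKM in Ppp6r3 cKO and 6.35, 5.93 and 6.53 FPKM in wild type. The 2 groups were separate with little spread in each, and its log2 difference of -0.54 (SE 0.072) had the smallest adjusted p of all members, 0.00317. It overlaps no exon of another gene, and no protein-coding gene starts within 10 kb of it.

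Zfp335os runs antisense to Zfp335, which encodes a zinc finger protein, with starts 403 bases apart and 18.4% of its exon bases shared with other genes' exons. It had 1.96, 1.82 and 1.51 FPKM in Ppp6r3 cKO and 3.26, 2.65 and 3.93 FPKM in wild type (log2 difference -0.85, SE 0.16, adjusted p = 0.0113). All Ppp6r3 cKO libraries lay below wild type. Zfp335 moved the other way, with 9.88, 9.85 and 9.26 FPKM in Ppp6r3 cKO and 8.34, 8.29 and 7.99 FPKM in wild type (log2 difference 0.23, adjusted p = 0.0201).

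Gm15706, a lincRNA of 899 exon bases that shares no exon base with another gene, had 4.61, 4.38 and 3.79 FPKM in Ppp6r3 cKO and 6.23, 6.84 and 7.59 FPKM in wild type. The groups did not overlap, and the log2 difference was -0.68 (SE 0.098, adjusted p = 0.00428).

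Gm14230 (chromosome 2, 156833049 to 156839892, minus strand) shares no exon base with another gene and starts 115 bases from Tgif2 on the other strand, which encodes a homeobox repressor of TGF-beta signalling. It had 17.7, 16.3 and 14.9 FPKM in Ppp6r3 cKO and 11.8, 11.6 and 12.2 FPKM in wild type, all Ppp6r3 cKO libraries above all wild-type libraries (log2 difference 0.45, SE 0.065, adjusted p = 0.00428). Tgif2 had 8.92, 9.06 and 8.65 FPKM in Ppp6r3 cKO and 6.85, 7.77 and 7.88 FPKM in wild type. Tgif2 thus rose as well, by 0.24 on the log2 scale (SE 0.065, adjusted p = 0.0409).

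The region between the starts of Gm14230 and Tgif2 and the promoter of AU020206, the most abundant member past the threshold, are shown from the RefSeq promoter table (GRCm38.p6, 250 bases before to 50 after the start, 5′ to 3′ on the strand of the named gene). Capitals mark GGCGGGAA, a core of E2F sites. Of 96 members in that table, 71 have a GENCODE start within 100 bases of the RefSeq one. The window of Tgif2 is chr2:156839757-156840056 on the plus strand, with the start of Gm14230 inside it on the minus strand, and that of AU020206 chr7:75782071-75782370 on the minus strand. The Tgif2 window holds 25 CpG at a GC content of 72.3% and no GGCGGGAA, and the AU020206 window holds 15 CpG at 55.7%.
Tgif2 promoter: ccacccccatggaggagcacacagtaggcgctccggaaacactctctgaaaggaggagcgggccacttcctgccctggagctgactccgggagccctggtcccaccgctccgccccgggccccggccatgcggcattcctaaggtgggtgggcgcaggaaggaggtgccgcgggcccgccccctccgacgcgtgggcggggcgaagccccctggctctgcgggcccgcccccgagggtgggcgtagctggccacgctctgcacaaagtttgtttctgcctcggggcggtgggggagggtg
AU020206 promoter: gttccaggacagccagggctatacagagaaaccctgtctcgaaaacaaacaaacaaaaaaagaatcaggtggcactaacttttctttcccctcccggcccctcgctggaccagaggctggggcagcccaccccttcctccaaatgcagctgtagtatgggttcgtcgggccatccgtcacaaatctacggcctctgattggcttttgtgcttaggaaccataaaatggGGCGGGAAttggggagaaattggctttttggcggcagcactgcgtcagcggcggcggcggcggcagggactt

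These motifs were searched on both strands, with no overlap between them in the windows shown. GGCGGGAA stood in 6 of the 71 member promoters (8.45%) and in 2.19% of 32851 promoters. For CACGTG (an E-box) it was 10 (14.1%) and 7.15%. For CNCCTCAG (a core of STRA8 sites) it was 7 (9.86%) and 7.94%, and for AACNGNC (a core of MYB sites) 27 (38.0%) and 32.8%. The 32851 were not matched to the members in level or in promoters per gene. Of the 7 called members among the 71, 2 held GGCGGGAA and 2 held AACNGNC, and 0 held the others. These 7 are too few for a share to be read. The promoters of Tslrn1 and 9330102E08Rik, searched but not shown, held 0 GGCGGGAA and 1 AACNGNC each. A match is a description of these letters and not a bound site.

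The other 11 changed members each lost their call under at least 1 alternative, all of them without at least 2 of the 6 libraries. Of these, 5 were lower and share no exon base with another gene, among them AU020206, described above. Tslrn1, an X-linked transcript named for its expression in testis, had 4.16, 5.47 and 3.19 FPKM in Ppp6r3 cKO and 6.19, 6.82 and 6.36 FPKM in wild type. Its groups did not overlap, although Ppp6r3 cKO spread widely (log2 difference -0.62, SE 0.17, adjusted p = 0.0499). The call was lost without any 1 library except Ppp6r3 cKO replicate 2, with log2 differences of -0.81 to -0.43 and adjusted p values up to 0.142. Gm20692, inside the body of Hdhd5 on the other strand, had 6.18, 7.35 and 5.64 FPKM in Ppp6r3 cKO and 9.46, 9.12 and 8.27 FPKM in wild type (log2 difference -0.49, adjusted p = 0.0155). Its groups were separate, the call was lost without wild-type replicate 1 or 2 (adjusted p up to 0.0588), and Hdhd5 had a log2 difference of -0.15 that did not pass (adjusted p = 0.0620). C920006O11Rik lies near Gsta4, a glutathione transferase gene at 285 ± 14.7 FPKM in Ppp6r3 cKO and 302 ± 3.56 FPKM in wild type (SD, n = 3 each), on the same strand. It had 6.55, 5.68 and 6.91 FPKM in Ppp6r3 cKO and 9.01, 9.14 and 7.54 FPKM in wild type, without overlap (log2 difference -0.42, adjusted p = 0.0248). The call was lost on leaving out Ppp6r3 cKO replicate 1 or 2 or wild-type replicate 1 or 2 (adjusted p up to 0.0890), and Gsta4 had a log2 difference of -0.09 (adjusted p = 0.212). D930016D06Rik, which is named after its values were seen, had 3.11, 3.23 and 3.04 FPKM in Ppp6r3 cKO and 3.88, 3.80 and 4.03 FPKM in wild type, again without overlap. Its log2 difference of -0.31 (adjusted p = 0.0263) was not past the threshold without any 1 of the 6 libraries (adjusted p 0.0506 to 0.0941).

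A further 3 lower members share exon bases with another gene. Gm12264 is antisense to Mprip, which encodes a partner of myosin phosphatase, and 54.0% of its exon bases are shared. It had 2.93, 3.003 and 3.59 FPKM in Ppp6r3 cKO and 4.22, 5.42 and 6.01 FPKM in wild type (log2 difference -0.69, adjusted p = 0.0144). The groups were separate, and Mprip had a log2 difference of 0.11 that did not pass (adjusted p = 0.0926), so the pair differed in sign. The call of Gm12264 was lost without wild-type replicate 2 or 3 (adjusted p up to 0.0574). A530020G20Rik, antisense to the choline transporter-like gene Slc44a3, had 1.89, 1.82 and 1.63 FPKM in Ppp6r3 cKO and 2.35, 2.49 and 2.54 FPKM in wild type (log2 difference -0.45, adjusted p = 0.0250). Its groups did not overlap, Slc44a3 did not pass (log2 difference 0.21, adjusted p = 0.514), and the call was lost without any 1 library except Ppp6r3 cKO replicate 1 (adjusted p up to 0.0871). 1700048O20Rik had 3.81, 3.19 and 3.87 FPKM in Ppp6r3 cKO and 4.82, 5.37 and 4.44 FPKM in wild type (log2 difference -0.42, adjusted p = 0.0293), without overlap. Its call was lost on leaving out Ppp6r3 cKO replicate 2 or wild-type replicate 1 or 2 (adjusted p up to 0.101).

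Of the 4 higher members, Gm14230 was described above. Gm53 lies on chromosome 11 (96251105 to 96264868, plus strand), and the nearest protein-coding start is that of Hoxb9, 20352 bases away. It had 10.9, 11.1 and 10.9 FPKM in Ppp6r3 cKO and 9.71, 9.57 and 9.72 FPKM in wild type. The spread within each group was small beside the difference (log2 difference 0.18, SE 0.043, adjusted p = 0.0293), but the call was lost without any 1 library except Ppp6r3 cKO replicate 1 (adjusted p up to 0.103). Gm12473 is antisense to Npr2, which encodes the receptor of C-type natriuretic peptide, and 49.2% of its exon bases are shared with other genes. It had 8.22, 6.48 and 7.06 FPKM in Ppp6r3 cKO and 3.54, 5.20 and 5.52 FPKM in wild type (log2 difference 0.62, SE 0.17, adjusted p = 0.0480), without overlap. Npr2 rose too, with 13.0, 13.0 and 12.7 FPKM in Ppp6r3 cKO and 11.8, 11.1 and 11.6 FPKM in wild type (log2 difference 0.16, adjusted p = 0.0484). The call of Gm12473 was lost without any 1 library except wild-type replicate 1 (log2 differences 0.42 to 0.74, adjusted p up to 0.130). Gm10550 shares 70.1% of its exon bases with Thap4. It had 4.04, 2.48 and 3.16 FPKM in Ppp6r3 cKO and 1.66, 2.15 and 1.59 FPKM in wild type, without overlap (log2 difference 0.79, SE 0.18, adjusted p = 0.0251), and Thap4 had a log2 difference of 0.01. That call was lost on leaving out Ppp6r3 cKO replicate 1 or 3 or wild-type replicate 1 or 3 (adjusted p up to 0.0846).

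The 7 role lists named 90 genes, of which 84 were found and 51 tested; over these, 2 were higher, 3 were lower and 46 did not pass. Of the 51 tested, 14 are members, and 0 of the 14 passed in limma, where Neat1 and Carmn had an unadjusted p under 0.05 (2 of 14) and voom on recovered fragments called 1, Neat1. With 8.0% of all members and 15.5% of all genes tested past the threshold, a count of 0 in 14 is near the background. All 4 of the higher members and all 12 of the lower ones stand outside the lists. The 5 listed genes that passed are not members. Zfas1 (15.3 ± 0.503 FPKM in Ppp6r3 cKO and 13.3 ± 0.223 FPKM in wild type) and Epb41l4aos (32.4 ± 3.46 FPKM in Ppp6r3 cKO and 26.1 ± 1.92 FPKM in wild type), both snoRNA hosts, were higher by 0.20 and 0.31 on the log2 scale (limma adjusted p = 0.0224 and 0.0418). Firre (9.35 ± 0.328 FPKM in Ppp6r3 cKO and 11.01 ± 0.376 FPKM in wild type), Mir9-3hg (1.49 ± 0.146 FPKM in Ppp6r3 cKO and 2.12 ± 0.256 FPKM in wild type) and Xist (0.0929 ± 0.0146 FPKM in Ppp6r3 cKO and 0.207 ± 0.0134 FPKM in wild type) were lower, with log2 differences of -0.23, -0.48 and -0.67 (limma adjusted p = 0.0201, 0.0458 and 0.0454, SD, n = 3 each). Xist, at a mean of 0.15 FPKM, is near the 0.1 added before the log, which understates its difference. How these 5 calls fare under the alternatives is not given here.

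Among the snoRNA hosts that are members, Snhg6 had 23.8, 26.0 and 26.2 FPKM in Ppp6r3 cKO and 26.9, 20.6 and 18.96 FPKM in wild type. The groups overlapped through wild-type replicate 1, and the log2 difference of 0.21 (95% interval -0.08 to 0.49) did not pass; without that library it was called higher. Snhg18 had a log2 difference of 0.06 (95% interval -0.11 to 0.24) and Snhg20 one of -0.10 (-0.27 to 0.08), and neither passed. Of the nuclear RNAs, Tug1, without which male mice are sterile, had 11.1 ± 0.480 FPKM in Ppp6r3 cKO and 11.2 ± 0.386 FPKM in wild type (SD, n = 3 each), a log2 difference of -0.02 with a 95% interval of -0.14 to 0.10. Neat1, the scaffold of paraspeckles, had 2.09, 2.12 and 2.05 FPKM in Ppp6r3 cKO and 2.43, 2.47 and 2.56 FPKM in wild type. All Ppp6r3 cKO libraries of Neat1 lay lower, and the log2 difference of -0.24 (95% interval -0.45 to -0.04) did not pass after adjustment (adjusted p = 0.104), although voom on recovered fragments called it lower.

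The search for microRNA genes, which left out the chromosome of Carmn, found 8 members that hold them. None of the 8 passed in limma or in voom on recovered fragments, and 1 of the 8 had an unadjusted p under 0.05 in limma. Beside 8.0% of all members and 15.5% of all genes tested, 0 of 8 is near the background too. Mir17hg, the precursor of the miR-17 to miR-92a cluster that promotes proliferation, had a log2 difference of -0.05 (95% interval -0.30 to 0.19), and Dnm3os, the precursor of miR-199a and miR-214, one of 0.08 (-0.19 to 0.34). Carmn, a smooth muscle RNA, stands among the microRNA hosts of the role lists and is not counted in the 8. It had 2.09, 2.34 and 2.47 FPKM in Ppp6r3 cKO and 2.04, 1.91 and 1.52 FPKM in wild type. The groups of Carmn did not overlap, and its log2 difference of 0.33 (95% interval 0.02 to 0.63) did not pass (adjusted p = 0.139). E130102H24Rik, which holds Mir101a, had 6.38, 5.52 and 7.70 FPKM in Ppp6r3 cKO and 4.92, 4.20 and 5.80 FPKM in wild type, with overlap, and a log2 difference of 0.39 (95% interval 0.05 to 0.72) that did not pass (adjusted p = 0.117). For 6720427I07Rik, the let-7 host, it was 0.03 (95% interval -0.23 to 0.28). Wt1os, antisense to the Sertoli cell transcription factor gene Wt1, had 2.87, 3.49 and 2.62 FPKM in Ppp6r3 cKO and 3.28, 3.27 and 3.40 FPKM in wild type, with overlap (log2 difference -0.15, 95% interval -0.41 to 0.10).

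**Figure D4:**
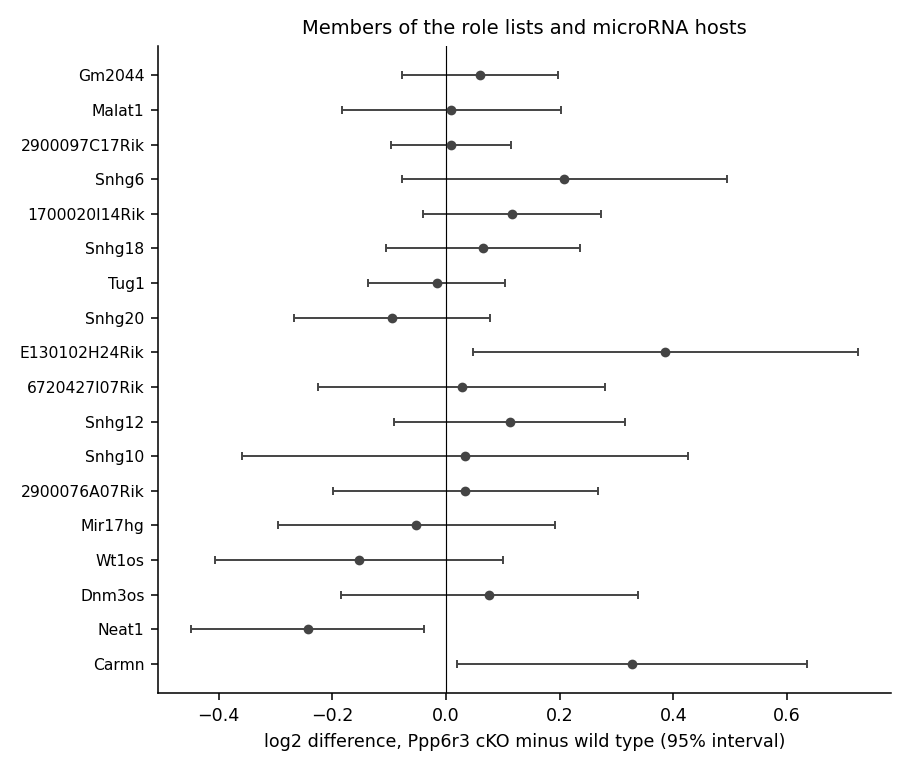
Log2 difference between genotypes (Ppp6r3 cKO minus wild type) with its 95% interval, not adjusted for the number of genes, for 18 members. These stand in a role list or were found to hold a microRNA gene, and are ordered by level with the most abundant at the top. The intervals of Neat1, Carmn and E130102H24Rik leave out 0, and 0 of the 18 passed after adjustment.

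Members were also set beside their nearest protein-coding gene. Of the 200, 104 overlap the body of one and 42 more have a protein-coding start within 10 kb, and 136 pairs in which both genes were tested are described here. Over the 136 pairs the log2 differences of member and neighbour had a Pearson correlation of 0.03 and a Spearman correlation of 0.09, as a description over genes measured in the same libraries. In the 74 pairs that share exon bases Pearson's value was -0.08, and in the 62 that share none it was 0.19. Both genes changed in 3 pairs: Gm14230 with Tgif2 and Gm12473 with Npr2 both rose, and Zfp335os fell where Zfp335 rose. Over the 136 pairs 36 neighbours changed, these 3 included, which is a larger share than the 15.5% of all genes tested. The median level of the neighbours was 14.53 FPKM, against 5.18 FPKM for all genes tested, and the part of level was not tested. The 8 pairs with a changed member are too few for a share of 3 to be read against either background. The remaining 54 members have no such neighbour, and of these 1 was higher and 6 were lower. That is 13.0% changed, against 8.0% of all members and 15.5% of all genes tested.

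Some of the largest changes among the neighbours stood beside members that did not pass, named here after their values were seen. Snhg6 overlaps Mcmdc2, a gene of meiotic recombination, which fell to 0.433 ± 0.0722 FPKM in Ppp6r3 cKO, against 0.958 ± 0.0752 FPKM in wild type (SD, n = 3 each; log2 difference -0.997, limma adjusted p = 0.00841), while Snhg6 itself stood at 0.21. Trmt61b, a noncoding gene here and in RefSeq, is antisense to Spdya, which activates a cyclin-dependent kinase in meiotic cells. Trmt61b had 2.27, 2.22 and 2.20 FPKM in Ppp6r3 cKO and 1.83, 2.14 and 1.86 FPKM in wild type (log2 difference 0.19, adjusted p = 0.243), without overlap. Spdya fell to 1.30 ± 0.177 FPKM in Ppp6r3 cKO, against 4.01 ± 0.991 FPKM in wild type (SD, n = 3 each; log2 difference -1.53, adjusted p = 0.00170).

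**Figure D5:**
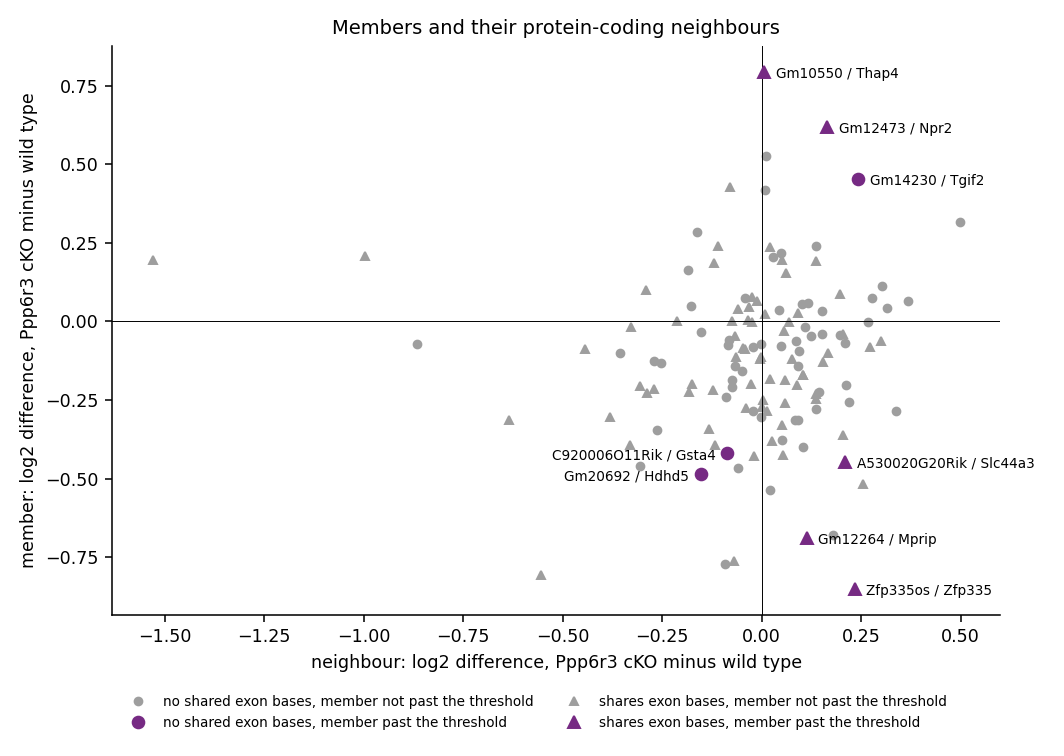
Log2 difference (Ppp6r3 cKO minus wild type) of each member against that of its protein-coding neighbour for 136 pairs in which both were tested, with triangles for pairs that share exon bases and the 8 pairs with a changed member named in purple. Over the pairs Pearson's correlation is 0.03, and Gm14230 with Tgif2 and Zfp335os with Zfp335 lie on different sides of the horizontal line.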

How the data were processed

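Polyadenylated RNA of testis was sequenced from 3 Ppp6r3 cKO and 3 wild-type samples on postnatal day 9. Per the labels, libraries were made with a stranded KAPA kit. The series' design text gives HISAT2 2.0.5 and mm10 for alignment, and DESeq2 stands in the submitters' processing notes. The counting tool, its strand setting and its annotation are not given in the sources used here. The authors deposited FPKM, although the table's name says raw counts: value times GENCODE M21 exon length gave whole fragments, within a tolerance of 0.01, for 31603 of 32589 genes above 0 (97.0%), including 194 of 200 members, and with another length for the other 986. The depth is thus an inference from the values.

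The members and lists were chosen with earlier results of these data known. On log2(FPKM + 0.1), limma 3.58.1 in R 4.3.3 was run with trend and robust variance (2-sided, Benjamini-Hochberg, threshold 0.05) over the 17673 genes that reached 10 recovered fragments in 3 libraries or more, and fold changes on this scale understate those of low genes. Between replicates, chi-square per degree of freedom was 2.22 to 4.29, above sampling noise, and each library counts once. For 1 gene, permuting 3 against 3 libraries exactly gives no p under 0.1. The script was tested on simulated data.

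Named members were the 10 most abundant, up to 10 rises and 10 falls past the threshold without overlap, up to 3 members per role list, and the coding neighbours of the changed ones, of which 1 is not reported here. Named outside this rule, after their values were seen, were D930016D06Rik, the further microRNA hosts, the role-list genes that are not members and the pairs with Mcmdc2 and Spdya. Positions are GENCODE M21 on GRCm38 (mm10), and sequences are from RefSeq GRCm38.p6 and GENCODE transcripts. Alternatives changed the test (voom on recovered fragments), scaling, filter, pseudocount, threshold, block, GC and length, member rule and libraries. Python 3.11.15 was used.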

Additional observations from a re-analysis of the deposited data

How the results depend on the processing

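No alternative reversed a changed member, and 5 of the 16 passed at an adjusted p under 0.05 in all 15 refits. Voom on recovered fragments called 4069 genes and 5 members higher and 19 lower, 14 of the 16 among them. The deposited values are not counts, and voom was the only test run on recovered fragments. The planned quasi-likelihood count test was not run. With no filter on low values 1508 genes and 6 members changed (1 higher, 5 lower), and at an adjusted p under 0.01, where fewer pass by construction, 889 genes and 4 members (1 higher, 3 lower). Members higher numbered 7 after the GC and length correction, 8 with the replicate block added and 7 with no minimum exon length. Among the members without exon overlap 10 changed (2 higher). Among the 193 members that RefSeq does not list as protein-coding, an alternative chosen after seeing the data, 4 were higher and 11 lower. The members' median was -0.01 after either GC and length correction, -0.04 without exon overlap, -0.06 with a pseudocount of 1 or in the top 100, and -0.09 with voom. Without 1 library, 1235 to 2398 genes changed, and 9 to 18 members (2 to 6 higher, 5 to 14 lower), with medians of -0.08 to -0.05. Except where stated, the cause was not tested.

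Same-numbered libraries share only a number: their deviations correlated at 0.016, -0.0062 and -0.0064. With the replicate number as a block, 2192 genes and 17 members changed (4 higher, 13 lower), 9 of them shared with the 16.

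Depth limits the lower ranks, where fragments per library fall to 10, and small differences there were not detectable.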

Other observations

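The lincRNA and antisense genes of at least 500 bases below rank 200 were also more often lower than higher. Of their 788 tested genes, 6 were higher and 41 lower in Ppp6r3 cKO (limma, adjusted p under 0.05), with a median log2 difference of -0.11 and a median SE of 0.23. Their summed level was 895, 914 and 919 FPKM in Ppp6r3 cKO and 1002, 1030 and 1047 FPKM in wild type, with no overlap. Among 14797 protein-coding genes tested, 1284 were higher and 1229 lower.

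Large differences that did not pass were seen in members with few fragments. Gm26779 had 4.76, 3.63 and 3.82 FPKM in Ppp6r3 cKO and 1.53, 3.06 and 2.50 FPKM in wild type (log2 difference 0.80, limma adjusted p = 0.0598), and Gm15265, which shares 43.5% of its exon bases with other genes, had 3.26, 3.40 and 1.97 FPKM in Ppp6r3 cKO and 5.81, 4.21 and 4.56 FPKM in wild type (-0.76, adjusted p = 0.0530). Both were named after their values were seen.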
